A study of Homo sapiens with 8 samples.

Results

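The genes described here are IFI27L2, AMIGO3, DPP3, SNORC, TTLL3, VPS9D1, B3GALT4, PILRB, NAIP and SERPINI1, 10 of the 19431 genes of the transcript table, measured through 62 of its 81591 transcripts. They were chosen by their measured level, which was higher with the p300/CBP inhibitor A-485, or with A-485 and I-CBP112 together, than in DMSO. Those 2 contrasts are therefore given for them as a description with no test, and the rule named no numeric threshold. All 10 passed the filter on low values (at least 1 in at least 2 libraries), which a gene can also pass through the groups where it is high.

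The RNA came from LNCaP-FGC, an androgen-dependent human prostate carcinoma line, sequenced from total RNA after 24 h of treatment. There were 4 groups of 2 libraries each, numbered 1 and 2: the solvent DMSO, I-CBP112, A-485, and both inhibitors. All 8 libraries came from the same line and the same treatment time. Doses were not found in the labels. Nothing in them describes the libraries of a group as separate cultures, so p-values measure the spread between these libraries, which may be technical.

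p300 and CBP are closely related coactivators that acetylate histones at enhancers and promoters and bind acetylated lysine through a bromodomain. A-485 blocks the catalytic acetyltransferase site, and I-CBP112 occupies the bromodomain. Their activity is best known for raising transcription, so genes whose RNA goes up under inhibition are the less studied side of the response.

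The 10 genes have no common function. AMIGO3, SNORC and PILRB encode membrane proteins, DPP3, TTLL3 and B3GALT4 are enzymes, IFI27L2, VPS9D1 and NAIP encode other intracellular proteins, and SERPINI1 encodes a secreted protease inhibitor. Of the 10, 7 had an entry among the RefSeq promoter windows (GRCh38.p14), and B3GALT4, PILRB and NAIP had none. The start regions of 3 are shown, so that 2 genes highest with both inhibitors, IFI27L2 and SNORC, can be set beside TTLL3, which was highest with A-485 alone. Each is the stretch of the 250-base window before a RefSeq start that lies in no annotated exon, with capitals for the GC box (GGGCGG or CCGCCC) and the CCAAT box (CCAAT or ATTGG) on either strand. IFI27L2 is on the minus strand at chr14:94129665-94129854, SNORC on the plus strand at chr2:232870014-232870263 (the start nearest to that of its main transcript), and TTLL3 on the plus strand at chr3:9809477-9809699.
IFI27L2: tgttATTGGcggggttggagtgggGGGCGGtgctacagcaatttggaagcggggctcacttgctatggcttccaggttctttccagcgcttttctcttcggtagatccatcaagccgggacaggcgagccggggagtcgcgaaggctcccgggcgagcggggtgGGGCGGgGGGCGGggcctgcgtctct
SNORC: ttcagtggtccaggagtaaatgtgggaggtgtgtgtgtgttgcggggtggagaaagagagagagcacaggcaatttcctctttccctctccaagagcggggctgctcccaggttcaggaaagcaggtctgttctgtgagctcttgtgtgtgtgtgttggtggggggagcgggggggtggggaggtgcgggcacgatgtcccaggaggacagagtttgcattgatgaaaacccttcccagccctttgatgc
TTLL3: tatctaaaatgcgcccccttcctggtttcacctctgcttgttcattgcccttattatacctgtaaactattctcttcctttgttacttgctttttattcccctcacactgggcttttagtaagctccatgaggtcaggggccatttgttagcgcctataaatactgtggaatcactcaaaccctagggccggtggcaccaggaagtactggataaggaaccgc

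The whole 250-base IFI27L2 window held 3 GC boxes, 1 CCAAT box and 19 CpG dinucleotides, against a median of 11 CpG over 35116 RefSeq windows of that length. The SNORC and TTLL3 windows shown held neither box and had 5 and 4 CpG, and the TTLL3 window held 1 TATAAA. The other TTLL3 starts in the table had 30 CpG with 2 GC boxes and 12 CpG with 1 GC box, so the window shown does not stand for all of them. The AMIGO3 window held 2 GC boxes and 2 CCAAT boxes, the DPP3 window 2 and 3, the VPS9D1 window 2 and 0, and the SERPINI1 window 0 and 0. Of all windows, 42.6% held a GC box and 32.0% a CCAAT box. None of the single windows of IFI27L2, AMIGO3, DPP3, VPS9D1 and SERPINI1 held the letters CACGTG (6.34% of all windows), TGACGTCA (1.65%), TATAAA (10.7%) or GAAANNGAAA (3.02%), searched on both strands. These counts describe letters in a window and not binding.

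Values are scaled FPKM, the deposited fragments per kilobase of transcript relative to library size (FPKM), after scaling of each library, and are compared here between libraries. Levels of different genes are less comparable, since the genes differ in the transcripts summed and in the sequence shared with other genes. The table stood for about 15.9 to 28.1 M fragments in replicate 1 libraries and 4.44 to 13.4 M in replicate 2 libraries. In replicate 2 this was 4.69 M in DMSO, 4.44 M with I-CBP112, 5.33 M with A-485 and 13.4 M with both. Depth thus differed by treatment there, and its part in the levels of the 10 genes was not tested. Of the fragments that the FPKM were relative to, the table held 22.6, 21.5, 33.8 and 49.4% in these 4 libraries. In replicate 1 libraries it held 90.7 to 99.2%. All 10 luminal prostate markers, among them KLK3 and KRT8, were at 1 or more in every library, but their summed level was 4871 to 6119 in DMSO, 3428 to 3650 with I-CBP112, 2224 to 2590 with A-485 and 1874 to 2496 with both. The part of that fall in the levels of the 10 genes was not tested. Relative to the median gene, 160 genes were called higher and 396 lower with A-485, and 353 higher and 871 lower with both (limma, adjusted p under 0.05). With the replicate number as a block the calls rose to 1577 and 2255. With each library scaled only to the same total the split was 378 higher and 161 lower, and 737 higher and 489 lower, and the median log2 fold change over genes then moved to 0.31 and 0.25. Fewer cells and less RNA per cell cannot be told apart in these bulk libraries.

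**Figure D1:**
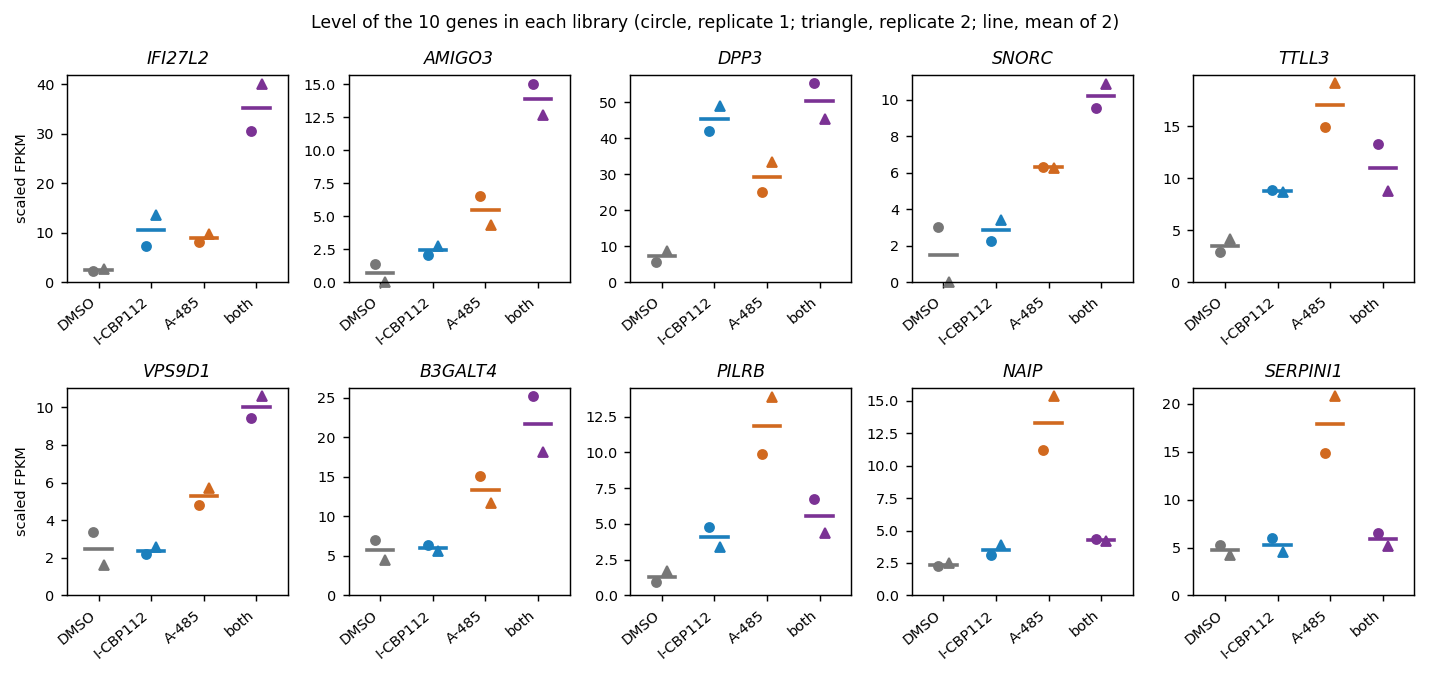
Scaled FPKM of each of the 10 genes in the 8 libraries (y axis, linear, from 0), by treatment; circles are replicate 1, triangles replicate 2 and lines the mean of 2. IFI27L2, AMIGO3, SNORC, VPS9D1 and B3GALT4 step up from A-485 to both inhibitors, whereas TTLL3, PILRB, NAIP and SERPINI1 peak with A-485 alone.

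Among the membrane proteins, AMIGO3 is a leucine-rich repeat adhesion molecule known from neurons. Its level was 1.35 and 0.000192 in the DMSO libraries, 2.09 and 2.74 with I-CBP112, 6.52 and 4.34 with A-485, and 15.0 and 12.7 with both. Each treated group lay above DMSO without overlap, and the combination lay above A-485. The log2 fold change of scaled FPKM + 1 was 2.05 ± 0.38 (SE) with A-485 and 3.27 ± 0.38 with both. The DMSO replicate 2 value rests on less than 1 fragment, and without that library the changes were 1.43 and 2.65.

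The AMIGO3 signal cannot be assigned to AMIGO3 alone. The gene has 1 transcript of 1 exon, and 99.6% of its 50-base words also occur in GMPPB-203, a long transcript of GMPPB (an enzyme of GDP-mannose synthesis) that runs over it on the same strand. GMPPB-203 was at 2.49 and 0.0282 in DMSO and 2.56 and 2.21 with I-CBP112, and at no more than 0.0346 in the 4 libraries with A-485. Against the DMSO mean, the summed level of AMIGO3 and GMPPB-203 was 2.48 times with I-CBP112, 2.82 times with A-485, and 7.17 times under the combination. GMPPB as a whole went from a mean of 73.8 in DMSO to 45.7 with A-485 and 49.9 with both, with no call (limma, adjusted p = 0.122 and 0.177, and 0.0416 and 0.0618 with the replicate number as a block). AMIGO3 alone with A-485 was 8.04 times the DMSO mean. The DMSO sums were 3.84 and 0.0284, and without DMSO replicate 2 the folds of the sum fell to 1.25, 1.42 and 3.61.

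SNORC encodes a transmembrane proteoglycan named for its place in cartilage. It was at 3.02 in the first DMSO library and listed at 0 in the second, at 2.28 and 3.42 with I-CBP112, 6.30 and 6.27 with A-485, and 9.54 and 10.8 with both. The A-485 and combination libraries lay above DMSO, whereas the I-CBP112 libraries overlapped it. The log2 fold change was 1.86 ± 0.54 with A-485 and 2.48 ± 0.54 with both, and 0.86 and 1.48 without DMSO replicate 2. About 19.7 fragments stood behind the value in DMSO replicate 1 and 60.4 and 47.2 behind those with both inhibitors.

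2 SNORC transcripts carried the signal. SNORC-201, which shares no 50-base word with another gene, was at 2.64 and 0 in DMSO, 4.11 and 5.46 with A-485, and 7.76 and 5.29 with both. SNORC-204, of whose 50-base words 44.8% also occur in GIGYF2, was near 0 in the DMSO and I-CBP112 libraries and reached 2.19 and 0.815 with A-485 and 1.78 and 5.54 with both. SNORC-201 thus lay above DMSO with A-485 and with both, though its DMSO values rest on about 16.3 fragments and on 0. SNORC-204 made 31.4% of the gain of the gene with A-485 and 42.2% with both. SOX9 and COL2A1, genes of the cartilage setting, did not pass the filter, and COL2A1, ACAN and MATN3 were under 1 in every library.

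PILRB is the activating member of a pair of immune receptors. Its level was 0.915 and 1.73 in DMSO, 4.75 and 3.40 with I-CBP112, 9.88 and 13.9 with A-485, and 6.75 and 4.39 with both. Every treated library lay above both DMSO libraries, and A-485 alone lay above the combination. In log2 terms the change was 2.48 ± 0.29 with A-485, the third highest among all genes tested, and 1.5 ± 0.29 with both.

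No single PILRB isoform held most of the gain. Of its 12 transcripts 5 passed the filter, and 4 of these lay above DMSO in both A-485 libraries (20.7% of all transcripts tested), 1 in both I-CBP112 libraries (15.2%) and 2 in both libraries of the combination (20.4%). With A-485 the one that gained most, PILRB-205, made 21.7% of the summed gains. Weighted by level, 85.3% of the 50-base words of PILRB with A-485 also occur in another gene, chiefly in the readthrough transcript STAG3L5P-PVRIG2P-PILRB, which is not analysed here. Reads from that transcript and from PILRB itself cannot be told apart. PILRA, the inhibitory receptor of the pair, which overlaps it on the same strand, was at a mean of 0.980 in DMSO and 0.712 with A-485, and TYROBP, the adaptor through which PILRB signals, did not pass the filter. Of 7 blood cell markers 6 were under 1 in every library, among them PTPRC, CD3E, CD14 and LYZ, and CD68 was at 1 or more in all. Their summed level was 1.43 to 2.07 in DMSO, 2.58 to 5.75 with A-485 and 4.34 to 6.16 with both, and its part in the PILRB level was not tested.

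**Figure D2:**
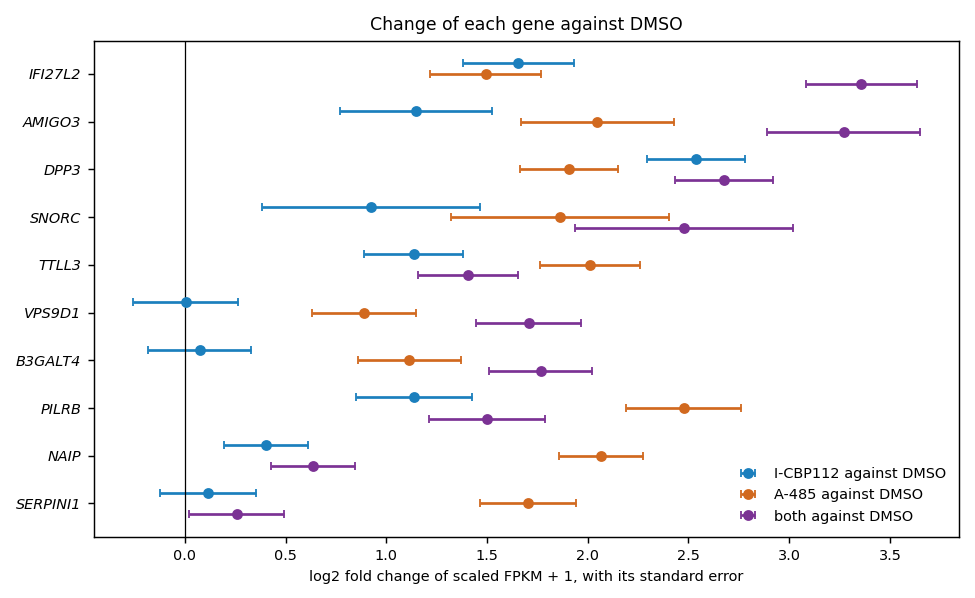
Log2 fold change of scaled FPKM + 1 against DMSO (x axis) for each gene, with its standard error from limma as the bar; the 3 comparisons share the DMSO libraries. The A-485 and combination points lie above 0 for all 10 genes by choice of the genes, and the I-CBP112 point reaches 2.54 for DPP3 and is at most 0.12 for VPS9D1, B3GALT4 and SERPINI1.

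Among the enzymes, DPP3 is a zinc-dependent dipeptidyl peptidase that also binds KEAP1, the repressor of the oxidative stress factor NRF2 (NFE2L2). It stood at 5.62 and 8.60 in DMSO, 41.9 and 49.0 with I-CBP112, 25.1 and 33.2 with A-485, and 55.2 and 45.3 with both. All treated libraries lay above DMSO, with I-CBP112 level with the combination and A-485 below both. Its log2 fold change was 2.54 ± 0.24 for I-CBP112, 1.91 ± 0.24 for A-485 and 2.68 ± 0.24 for the combination. The combined change was smaller than the sum of the single ones, with an interaction of -1.77 ± 0.34 on the log2 scale.

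DPP3-215 gained most in each treated group. It was at 0.586 and 0.104 in DMSO, 33.3 and 49.0 with I-CBP112, 5.65 and 29.6 with A-485, and 37.9 and 43.9 with both, and made 94.5% of the summed gains for I-CBP112, 71.5% for A-485 and 90.6% for the combination. In A-485 replicate 1 it was only 22.5% of the gene, below DPP3-210 (8.92) and DPP3-205. DPP3-205, which shares 81.2% of the 50-base words of DPP3-215, was at 0.00849 and 7.17 in DMSO and 8.05 and near 0 with A-485, so the 2 libraries of a group split the gene differently. A change of a single isoform is therefore less certain than the change of the sum.

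The size of the DPP3 rise depends on which transcripts are summed. AP002748.4, a readthrough of DPP3 into BBS1, was at means of 10.2 in DMSO, 7.49 for I-CBP112, 7.01 for A-485 and 16 for the combination. With its whole level added, the folds became 3.06, 2.09 and 3.83. Only 7.12% of the 50-base words of DPP3-215 also occur in AP002748.4, so most of DPP3-215 can be told apart from it. The transcript ENST00000360510 of the table has no gene in the annotation used here and stood at 20.0 and 0.978 in DMSO, 10.3 and 0.0155 with I-CBP112, 8.91 and 0.0138 with A-485, and 0.00293 and 0.00276 with both. Older Ensembl releases may list it under DPP3, which could not be checked here. If it is counted, DPP3 is at 25.6 and 9.58 in DMSO, and the folds fall from 6.39 to 2.87 with I-CBP112, from 4.10 to 1.91 with A-485 and from 7.06 to 2.85 with both. The treated libraries, at 33.2 to 55.2, still lie above both DMSO libraries. The same limit holds for transcripts of the other members that the annotation does not name.

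TTLL3 is a ligase that adds glycine to tubulin in cilia. It was at 2.85 and 4.13 in DMSO, 8.86 and 8.66 with I-CBP112, 14.9 and 19.1 with A-485, and 13.2 and 8.71 with both. Every treated library was above both DMSO libraries, and A-485 alone was highest. The log2 fold change was 2.01 ± 0.25 with A-485 and 1.40 ± 0.25 with both.

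No TTLL3 isoform dominated. Of 18 transcripts, 10 reached 1 in some library, and TTLL3-212 made the largest share of the summed gains with A-485, 28.4%. TTLL3-212, of 536 bases, is annotated without its end, and 14 of the 18 are incomplete at an end. Of its bases, 28.9% lie in exons of the opposite strand, and the counting is not stated to use strand. TTLL3-202, of 4834 bases, was at 0.443 and 1.54 in DMSO, 3.54 and 4.68 with A-485, and 2.31 and 2.14 with both. Weighted by level, 60.9% of the 50-base words of TTLL3 with A-485 also occur elsewhere, nearly all in the readthrough gene ARPC4-TTLL3. That gene was low, at a mean of 1.48 in DMSO and 0.223 with A-485, and adding it gave folds of 2.17 (I-CBP112), 3.47 (A-485) and 2.75 (both), against 2.51, 4.88 and 3.15 for TTLL3 alone. ARPC4, whose start such a readthrough uses, had no call with A-485 (log2 fold change 0.36 ± 0.85).

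B3GALT4 adds galactose in the synthesis of gangliosides. Its level was 7.02 and 4.42 in DMSO, 6.34 and 5.56 with I-CBP112, 15.1 and 11.7 with A-485, and 25.2 and 18.2 with both. I-CBP112 overlapped DMSO, A-485 lay above both, and the combination lay above A-485. The table holds 1 of its 2 annotated transcripts, of 1 exon, which shares no 50-base word with another gene. On the log2 scale of scaled FPKM + 1 the change was 1.11 ± 0.26 with A-485 and 1.77 ± 0.26 with both.

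**Figure D3:**
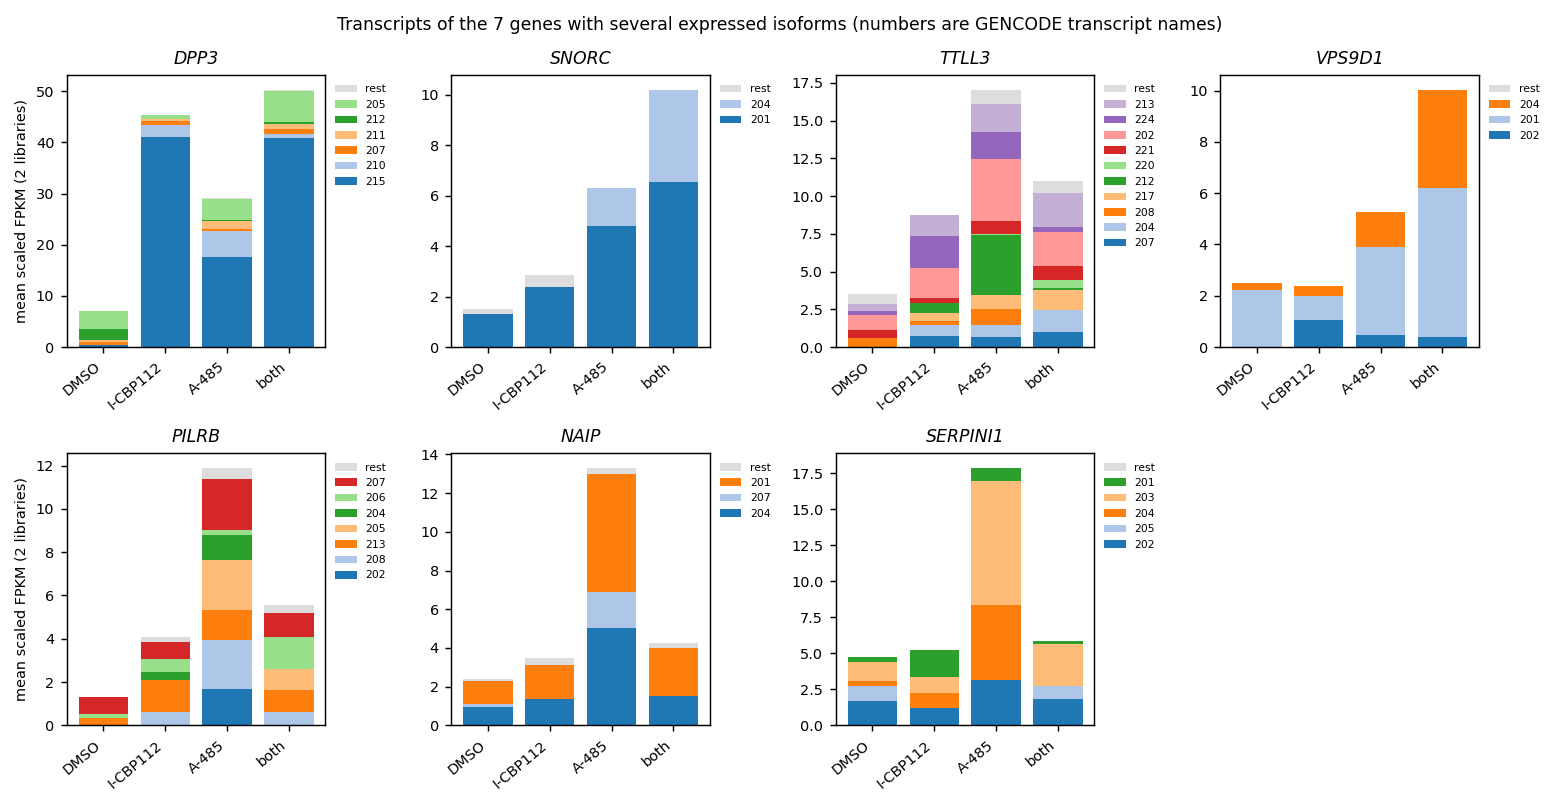
Mean scaled FPKM (y axis, linear, from 0) of the transcripts of the 7 genes with several expressed isoforms, stacked by treatment; numbers in the keys are the last part of the transcript name, and rest is the sum of transcripts under 1 in every library. DPP3 is filled mainly by 215 in the treated groups, SERPINI1 with A-485 by 203 and 204, and TTLL3 and PILRB by many isoforms.

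Of the other intracellular proteins, IFI27L2 belongs to the small hydrophobic family of the interferon-inducible IFI27. It was at 2.34 and 2.69 in DMSO, 7.40 and 13.5 with I-CBP112, 8.16 and 9.68 with A-485, and 30.5 and 40.1 with both. Each inhibitor alone lay above DMSO, the 2 overlapped each other, and the combination lay above both. Its log2 fold change with both, 3.36 ± 0.28, was the highest of all 11876 genes tested, and that with A-485 was 1.49 ± 0.28. On the log2 scale the combined change differed from the sum of the single ones by less than its error, with an interaction of 0.21 ± 0.39.

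The IFI27L2 signal came from 1 transcript, IFI27L2-201, in every group, and none of its 50-base words occurs in another gene. It is a short transcript of 511 bases, and the DMSO values rest on about 15.9 and 4.82 fragments, against 222 and 218 with both. IFI27L1, its close neighbour in the family, was at a mean of 37.6 in DMSO and 37.0 with both (limma, adjusted p = 0.968). IFI27 was listed at or near 0 in both DMSO libraries, and near 0 and at 4.5 with both, with no call (limma, adjusted p = 0.376).

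VPS9D1 carries the domain by which other proteins activate RAB5 in early endosomes. It was at 3.37 and 1.61 in DMSO, 2.21 and 2.57 with I-CBP112, 4.83 and 5.70 with A-485, and 9.46 and 10.6 with both. I-CBP112 lay within the DMSO range, and the other groups lay above it. As a log2 fold change this was 0.89 ± 0.26 with A-485, the smallest of the 10, and 1.71 ± 0.26 with both.

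2 VPS9D1 transcripts were higher with both inhibitors. VPS9D1-201 was at 2.85 and 1.61 in DMSO, 3.38 and 3.47 with A-485, and 6.89 and 4.74 with both. VPS9D1-204 was at 0.512 and near 0 in DMSO and at 2.57 and 5.08 with both. Only 4.64% of the 50-base words of the gene, weighted by level with both, also occur in another gene, and these lie in the antisense gene VPS9D1-AS1, which is not analysed here. The counting is not stated to use strand, so antisense reads cannot be told apart in that stretch.

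NAIP is a cytosolic sensor of bacterial flagellin and secretion needles that starts an inflammasome with NLRC4. Its level was 2.25 and 2.52 in DMSO, 3.11 and 3.87 with I-CBP112, 11.2 and 15.4 with A-485, and 4.34 and 4.16 with both. Every treated group lay above DMSO without overlap, and A-485 was highest, at 5.58 times the DMSO mean, against 1.78 times with both. The log2 fold change was 2.06 ± 0.21 with A-485 and 0.64 ± 0.21 with both, and the difference of the combination from A-485 was -1.43 ± 0.21. NLRC4, CASP1 and PYCARD, the other parts of the inflammasome, did not pass the filter.

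NAIP had 6 transcripts, of which 3 reached 1 in some library and 2 passed the filter. These 2 moved together, and the other transcripts held the rest of the level. NAIP-204 went from 0.961 and 0.924 in DMSO to 5.0 and 5.01 with A-485, and NAIP-201 from 0.884 and 1.58 to 5.77 and 6.50. Of the 50-base words of the gene, weighted by level, 64.8% also occur in other genes, mainly the copies AC140134.1, AC145138.1 and AC139495.1 of the same duplicated region, which are not analysed here. NAIP levels are therefore uncertain as to the copy the reads came from. GTF2H2, a repair factor subunit beside NAIP in that region, was at 71.6 and 97.4 in DMSO, 123 and 171 with A-485, and 66.4 and 75.1 with both. It was highest with A-485 without overlap with DMSO, but missed the threshold (log2 fold change 0.79 ± 0.24, limma, adjusted p = 0.0918, and 0.0343 with the replicate number as a block). SMN1, the other adjacent gene, was at 31.4 and 35.9 in DMSO, 40.1 and 46.3 with A-485, and 29.1 and 36.2 with both. With A-485 it also lay above DMSO without overlap, with no call (log2 fold change 0.35 ± 0.20, limma, adjusted p = 0.305).

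SERPINI1 encodes neuroserpin, a secreted inhibitor of tissue plasminogen activator. Its level was 5.31 and 4.18 in DMSO, 6.0 and 4.48 with I-CBP112, 14.9 and 20.9 with A-485, and 6.55 and 5.18 with both. Only A-485 alone stood apart from DMSO, and the combination overlapped it. Its log2 fold change was 1.70 ± 0.24 with A-485 and 0.26 ± 0.24 with both, a difference of -1.45 ± 0.24.

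The estimates placed most of the SERPINI1 gain in 2 short transcripts. SERPINI1-203, of 595 bases and annotated without its true start, was at 0.990 and 1.61 in DMSO and 6.66 and 10.6 with A-485. SERPINI1-204, of 842 bases and annotated without its end, was at 0.622 and 0.0490 in DMSO and 5.26 and 5.12 with A-485. The full-length SERPINI1-202 was at 0.872 and 2.53 in DMSO and 2.15 and 4.15 with A-485, and overlapped. SERPINI1-201, also full-length, was at 0.728 and near 0 in DMSO and 0.790 and 0.957 with A-485. Of the 50-base words of SERPINI1-203, 99.63% also lie in 201 and 202, and of those of SERPINI1-204, 94.2%, so the split between short and full-length forms is uncertain. No 50-base word of the gene occurs in another gene. PLAT and PLAU, the proteases it can bind, did not pass the filter.

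Read over the 10 genes, the signal shared no 50-base word with another gene for IFI27L2, B3GALT4 and SERPINI1, and few for VPS9D1 and none for SNORC-201. It came from 1 transcript of the table for IFI27L2, B3GALT4 and AMIGO3. For SERPINI1 and DPP3 the isoform that carried it is uncertain. It was shared with a readthrough or containing transcript for AMIGO3, TTLL3 and PILRB, and with duplicated copies for NAIP.

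**Figure D4:**
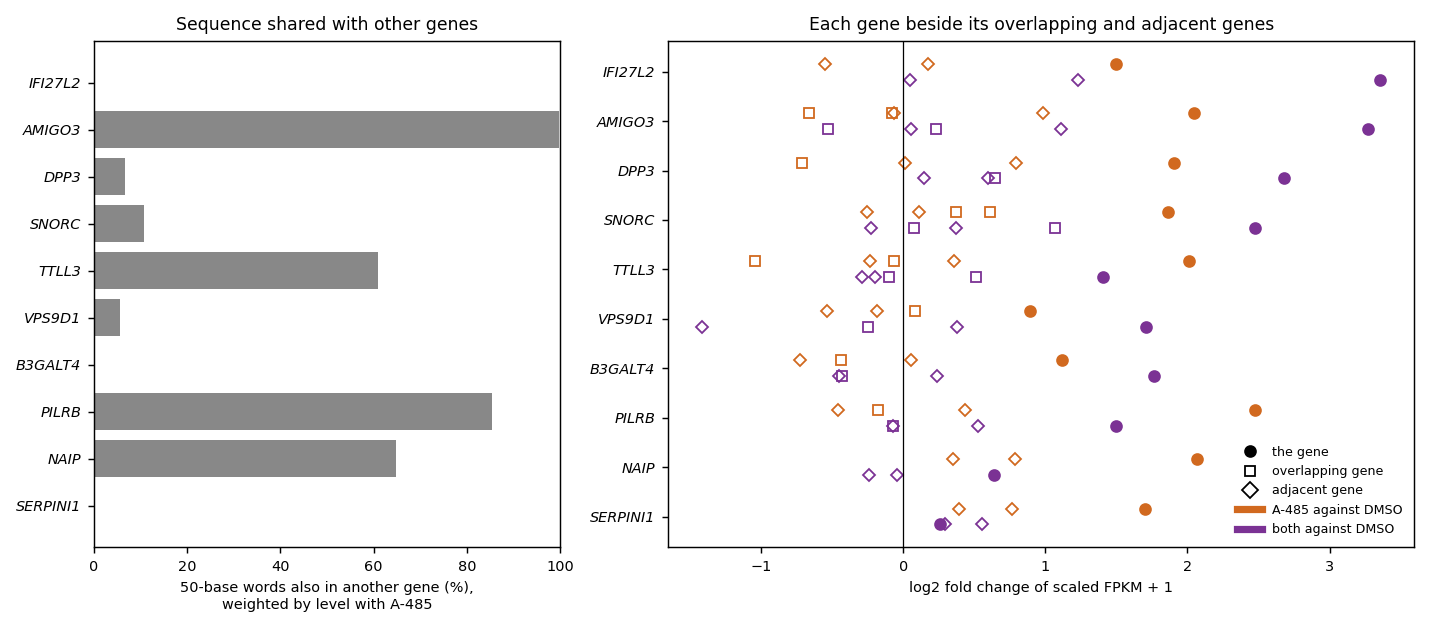
Left, the percentage of each gene's 50-base words that also occur in another annotated gene, weighted by transcript level with A-485; right, log2 fold change of scaled FPKM + 1 for each gene (filled) and for its overlapping (squares) and adjacent (diamonds) genes that were tested. Sharing runs from 0 for IFI27L2, B3GALT4 and SERPINI1 to 99.6% for AMIGO3, and none of the overlapping or adjacent genes was called higher without the replicate block.

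The order of the groups split the genes. IFI27L2, AMIGO3, DPP3, SNORC, VPS9D1 and B3GALT4, 6 of 10, were higher with both inhibitors than with A-485 without overlap, which 23.1% of all genes tested were. TTLL3, PILRB, NAIP and SERPINI1 were lower with both than with A-485 without overlap, as were 25.3% of all genes. The ratio of the combination to A-485 ran from 3.96 for IFI27L2 to 0.320 for NAIP. Since A-485 and the combination were used to choose the genes, this is a description of them.

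Against DMSO, 10 of 10 lay higher with A-485 without overlap (25.5% of all genes), and 9 of 10 with both (27.0%), the exception being SERPINI1. By adjusted p, 8 of the 10 were among the genes called higher with A-485 (1.35% of all tested), all but SNORC and VPS9D1, and 8 among those called higher with both (2.97%), all but NAIP and SERPINI1. These counts follow from how the genes were chosen. Of the neuroendocrine markers, 5 of 7 were under 1 in every library, CHGA and CHGB among them, but the summed level of the 7 was 19.0 to 32.2 in DMSO, 35.7 to 38.3 with A-485 and 75.4 to 78.2 with both, through ENO2 and SYP. That sum was highest in the same group as IFI27L2, AMIGO3, SNORC, VPS9D1 and B3GALT4, and its part in their levels was not tested.

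I-CBP112 against DMSO was not used to choose the genes, though it shares the DMSO libraries with the contrasts that were. None of the 10 was called (limma, adjusted p under 0.05), as was none of the 11876 genes tested, 0.0%, although 1317 of these had an unadjusted p under 0.05. DPP3 came closest, at a log2 fold change of 2.54 ± 0.24 (limma, adjusted p = 0.0528). This fit and the settings that follow leave out ENST00000360510, and no test was run with it. With it, DPP3 was at 25.6 and 9.58 in DMSO, and the fold with I-CBP112 fell from 6.39 to 2.87. With the replicate block DPP3 passed (limma, adjusted p = 0.0461). With a filter of 5 in at least 2 libraries, it passed (limma, adjusted p = 0.0255), and it did not without any filter (limma, adjusted p = 0.207) or with either I-CBP112 library left out (limma, adjusted p = 0.149 and 0.226).

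The next in order were IFI27L2 at 1.65 ± 0.28 (limma, adjusted p = 0.170), TTLL3 at 1.14 ± 0.25 (0.261), PILRB at 1.14 ± 0.29 (0.295) and AMIGO3 at 1.15 ± 0.38 (0.355). All 4 were higher in both I-CBP112 libraries than in both DMSO libraries, as were DPP3 and NAIP, which makes 6 of 10 where 17.2% of all genes tested were. SNORC was at 0.92 ± 0.54 (limma, adjusted p = 0.574) and NAIP at 0.40 ± 0.21 (0.516). VPS9D1, B3GALT4 and SERPINI1 were at 0.00 ± 0.26, 0.07 ± 0.26 and 0.12 ± 0.24 and overlapped DMSO (limma, adjusted p = 0.998, 0.945 and 0.892). The median over the 10 was 1.03, against -0.02 over all genes tested. The 10 were chosen as higher than these same DMSO libraries, which favours values above DMSO with I-CBP112 too. The 6 of 10 and this median are therefore a description. Among single transcripts, 7 of 31832 were called with I-CBP112 (0.022%), none of them from the 10 genes, and DPP3-215 stood at 4.97 ± 0.69 (limma, adjusted p = 0.235).

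Few genes around the 10 were called. Of 20 adjacent genes, all tested, none was called higher or lower with A-485, and 1 was called lower with both, FANCA beside VPS9D1, at -1.42 ± 0.32 (limma, adjusted p = 0.0288). The FANCA call was lost in 5 of 14 other settings, among them without DMSO replicate 1 or either library of the combination (limma, adjusted p from 0.0226 to 0.975). Of 16 overlapping genes 10 were tested and none was called. With the replicate block, GTF2H2 was called higher and RPS18 and GMPPB lower with A-485, and NGEF higher with both. The median log2 fold change with A-485 was 0.08 for the adjacent and -0.13 for the overlapping genes, against 1.88 for the 10 and -0.01 for all genes tested. NGEF, which overlaps SNORC on the opposite strand, came nearest with both inhibitors, at means of 18.6 in DMSO and 39.7 (log2 fold change 1.07 ± 0.32, limma, adjusted p = 0.0734, and 0.00757 with the block). MST1, adjacent to AMIGO3 on the same strand, was at 3.44 and 6.48 in DMSO, 11.4 and 9.51 with A-485, and 9.12 and 14.2 with both. It lay above DMSO without overlap in these groups, with no call (log2 fold change 0.99 ± 0.37 and 1.11 ± 0.37, limma, adjusted p = 0.146 and 0.0972).

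Of 34 paralogs, 21 were tested and none was called higher in any of the 3 comparisons, and 1, BIRC2 with both, was called higher with the block (limma, adjusted p = 0.0392). BIRC5, the mitotic relative of NAIP, was called lower with both, at -0.91 ± 0.24 (limma, adjusted p = 0.0489). That call was lost in 10 of 14 other settings, among them each library left out except DMSO replicate 2 (limma, adjusted p from 0.0117 to 0.984). Examples of kin within a log2 fold change of 0.40 of 0 with A-485 were IFI27L1 (-0.35), AMIGO1 (-0.02), PILRA (-0.18), B3GALT6 (-0.37) and XIAP (0.39). Others moved further, among them RIN2 (0.76), TTLL7 (0.71), BIRC2 (0.71), BIRC3 (0.60) and TTLL12 (-0.80). TTLL12 was called lower only with the block, with A-485 and with both (limma, adjusted p = 0.0263 and 0.0157). Of the 21 tested, 10 were above 0 with A-485, and the median was -0.02.

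Of 21 partners by role, 13 were tested, most of them KEAP1, NFE2L2 or targets of NRF2, the factor freed when DPP3 holds KEAP1. All those called were such targets. The list was chosen with earlier results of these data known, so its counts are a description. With A-485, 4 of the 13 were called lower (3.33% of all genes tested) and none higher, and with both 3 were lower (7.33%). With the replicate block these counts were 5 and 6. HMOX1, which breaks down heme, was at 31.1 and 26.3 in DMSO, 8.64 and 8.55 with I-CBP112, 8.20 and 5.99 with A-485, and 5.95 and 6.50 with both. SLC7A11, the cystine importer, was at 16.3 and 27.8 in DMSO, 19.8 and 17.8 with I-CBP112, 6.78 and 8.11 with A-485, and 3.08 and 3.74 with both. Both lay below DMSO without overlap with A-485 and with both, whereas DPP3 lay above it. With I-CBP112, under which DPP3 rose more than with A-485, HMOX1 lay below DMSO and SLC7A11 within its range. A link of these levels to DPP3 was not tested.

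HMOX1 fell with A-485, at a log2 fold change of -1.88 ± 0.20, and with both, at -2.04 ± 0.20 (limma, adjusted p = 0.00539 and 0.000956). With I-CBP112 it was at -1.63 ± 0.20 and missed the threshold (limma, adjusted p = 0.0743). SLC7A11 fell at -1.41 ± 0.25 and -2.34 ± 0.25 (limma, adjusted p = 0.0247 and 0.00155), and the quinone reductase NQO1 at -1.11 ± 0.21 and -1.17 ± 0.21 (limma, adjusted p = 0.0293 and 0.0137). SRXN1 fell with A-485 only at the edge of the threshold, at -0.85 ± 0.19 (limma, adjusted p = 0.0480). KEAP1 (-0.52 with A-485) and NFE2L2 (0.47) had no call. The targets GCLC (-0.30 with A-485 and -0.47 with both), GCLM (-0.56 and -0.69) and TXNRD1 (-0.43 and -0.74) had none without the block. With the block, GCLM was called lower with A-485 and with both, and TXNRD1 with both. With both inhibitors, the call of NQO1 was lost in 3 of 14 other settings, among them leaving out either library of the combination. Those of HMOX1 and SLC7A11 with both were each lost in 1, the values as deposited. The A-485 calls of NQO1 and SRXN1 were lost in 10 and 11 of 14 other settings, among them leaving out either A-485 library (limma, adjusted p from 0.0161 to 1.0 and 0.0226 to 1.0). That of SLC7A11 was lost in 5, also without either A-485 library, and that of HMOX1 in 2, one of them without A-485 replicate 2 (limma, adjusted p = 0.0510).

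By their profile over the 8 libraries, the genes most like the mean of the 10 were COL1A1 (Pearson r = 0.990), ALAD (0.987), CSPG5 (0.973), BTN2A1 (0.970) and LRRC56 (0.968), among genes with a mean of at least 5. The 8 points share group structure and depth, so r is given as a description. The mean joins genes highest with both inhibitors and genes highest with A-485 alone, so it need not stand for either set. Between single members r ran from 0.041 (IFI27L2 and SERPINI1) to 0.986 (TTLL3 and PILRB). COL1A1 was at 3.56 and 3.48 in DMSO, 6.12 and 5.85 with I-CBP112, 9.27 and 9.91 with A-485, and 11.6 and 9.56 with both. ALAD went from 8.44 and 7.09 in DMSO to 14.8 and 15.8 with A-485 and 15.1 and 14.1 with both. COL1A1 is a collagen gene of stromal cells and 1 of 6 stromal markers, of which 3 were at 1 or more in every library and COL1A2, DCN and LUM under 1. The summed level of the 6 was 18.9 to 32.2 in DMSO, 27.1 to 29.9 with A-485 and 29 to 29.4 with both.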

How the data were processed

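RNA from 8 LNCaP-FGC libraries was described by 1 table of FPKM per transcript, which the authors deposited; that its values are FPKM was read from the values. Per the submitters' processing notes, hg19 was the build, and STAR and Cufflinks appear beside DESeq and DESeq2, with no role or version stated. Each library was scaled with TMM factors, transcripts were summed by GENCODE release 29 gene (74209 transcripts, 91.0%, matched), and log2(scaled FPKM + 1) was fitted over all 4 groups with limma 3.58.1 in R 4.3.3, with Benjamini-Hochberg adjustment over all genes with at least 1 in at least 2 libraries. Estimated fragments came from the smallest steps of the values (79.3 to 86.0% of low values whole within 0.1 of a step) and served only to show depth. Genes named are the 10, their overlapping, adjacent, paralogous and partner genes that were called or bear on a member, and the 5 genes of most similar profile. In the column headers all replicate 1 libraries share a date-like prefix and all replicate 2 libraries another, with no statement of what it marks, so values with the replicate number as a block are given where they change a call. Members and lists were chosen with earlier results of these data known. Scaling, pseudocount, filter, replicate block and each library left out were varied. The tests were also run on simulated data with known changes. These had a smaller spread than the DMSO libraries, no link between same-numbered libraries, and changes only in genes well above 0. They therefore do not show how the tests perform on low genes here.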

Additional observations from a re-analysis of the deposited data

How the results depend on the processing

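For the 10 genes, the log2 fold changes with A-485 and with both inhibitors stayed above 0 in every alternative run. With I-CBP112, leaving out a library moved SNORC from -0.079 (without DMSO replicate 2) to 1.93, VPS9D1 from -0.37 to 0.37, B3GALT4 from -0.21 to 0.36 and SERPINI1 from -0.059 (without I-CBP112 replicate 1) to 0.29. With values as deposited, VPS9D1 turned to -0.052 with I-CBP112 and SRXN1 to 0.056 with both. VPS9D1 also turned to -0.07 without I-CBP112 replicate 2. B3GALT4 was at -0.0076 without I-CBP112 replicate 1 and SERPINI1 at -0.026 without DMSO replicate 2. The cause was not tested. Genes called with I-CBP112 numbered 0, against 5 with a filter of 5, and 0 to 2 with a library left out. With A-485 the 556 became 0 as deposited and 355 without a filter, and ranged from 20 (without A-485 replicate 2) to 1394 (without DMSO replicate 2). With both, the 1224 became 0 as deposited and ranged from 283 to 1329. Transcripts called with I-CBP112 numbered 7, against 26 without a filter, 4 with a filter of 5, and 1 to 12 with a library left out. With the replicate number as a block the counts were 1, 1577, 2255 and, for transcripts, 2. DPP3 with I-CBP112, summed without ENST00000360510, then passed (limma, adjusted p = 0.0461). Same-numbered libraries correlated at r = 0.144 to 0.425 across genes in their deviations from the group means, in all pairs of groups. The DPP3 sum with an unassigned transcript, and the AMIGO3 sum without DMSO replicate 2, were added after seeing the data. Gene symbols from the deposited table were not run, since scripts found none in it. Low depth of replicate 2 libraries limits low values most.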
